A study of Mus musculus with 10 samples.

Results

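The proteasome is the large protease of the cytosol and nucleus that degrades proteins tagged with ubiquitin, and the gene set described here encodes its subunits, activators and assembly factors. Members were the genes whose symbol begins with Psma, Psmb, Psmc, Psmd or Psme followed by a digit, leaving out the 3 immunoproteasome genes Psmb8, Psmb9 and Psmb10. The rule used no measured value and found 43 genes, represented by 81 transcript models, among the 17599 genes of the tables. RNA sequencing had been done on 10 libraries of wild-type (WT) cells sorted by flow cytometry from female C3H/HeN mice that had been injected with SCC7 cells (a squamous carcinoma line of the mouse), once tumors had grown. All 3 groups came from such tumor-injected mice: 3 libraries of CD45- cells from spleen, 3 libraries of CD45+ cells from spleen and 4 libraries of CD45+ cells from tumor, with a disease state of HNSCC (head and neck squamous cell carcinoma) in the labels. The labels call the sorted cells EPC without spelling this out, give no age of the mice, and list no treatment. They do not say whether libraries of a group came from separate animals, so p-values measure the spread between these libraries, which may be technical. CD45 is a surface protein of nucleated blood cells that red cell precursors lose as they mature.

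Levels are given in FPKM, a unit that corrects for transcript length and sequencing depth, so they can be compared between genes. The deposited values name no unit and were read as FPKM. Their sum ranged from 801072 to 1367791 between libraries, so an equal FPKM is not an equal share of each library's sum. The sorted populations were checked against marker lists. All 10 red cell precursor markers (Klf1, Gata1 and others) summed to 12200 to 12700 FPKM in the splenic CD45- libraries, 6600 to 7270 FPKM in the splenic CD45+ libraries and 58.5 to 244 FPKM in the tumor libraries. The 10 monocyte and macrophage markers ran the other way, at 62.3 to 118 FPKM, 1390 to 4230 FPKM and 25700 to 47200 FPKM, and the 10 granulocyte markers reached 22600 to 75800 FPKM in the splenic CD45+ libraries against 386 to 516 FPKM and 49.6 to 1730 FPKM in the other two groups. Most of the red cell precursor sum in tumor was Alas2 (39.4 to 224 FPKM) and Tfrc (11.7 to 18.4 FPKM). Klf1 and Gata1 were at most 0.45 and 0.27 FPKM there. The 6 epithelial markers summed to 312 to 406 FPKM in tumor and at most 2.84 FPKM in spleen. Nearly all of that sum was Krt8 (208 to 239 FPKM) and Krt18 (95.4 to 164 FPKM), whereas in tumor Krt5, Krt14 and Epcam were at most 0.02, 0.13 and 0.04 FPKM, and Epcam was higher in splenic CD45+ libraries (0.14 to 2.08 FPKM). Cdh1 was at 1.56 to 2.66 FPKM in tumor and at most 0.53 FPKM in spleen. In splenic CD45-, splenic CD45+ and tumor libraries, B cell markers summed to 24.9 to 31.4, 145 to 1310 and 6.09 to 7.71 FPKM. T and NK cell markers summed to 6.19 to 8.33, 51.3 to 362 and 7.9 to 43.9 FPKM. Endothelial markers summed to 159 to 178 FPKM in tumor and at most 37.7 FPKM in spleen. Most of the tumor sum was Cd34 (151 to 172 FPKM), while Pecam1 was lower in tumor (1.27 to 2.35 FPKM) than in splenic CD45+ libraries (3.21 to 36.5 FPKM). Cdh5 and Kdr were low but higher in tumor (1.97 to 2.85 and 2.45 to 3.78 FPKM) than in spleen (at most 0.27 and 0.32 FPKM). Tek was at most 0.04 FPKM in every library. Globin genes held 62.53% to 63.53%, 29.35% to 52.16% and 1.8% to 10.43% of the summed FPKM. Splenic CD45+ replicate 2 stood apart (B cell markers at 145 FPKM against 1180 FPKM and 1310 FPKM, globin at 29.35%), as did tumor replicate 1 (globin at 10.43% against 1.8% to 1.87%), and results that rest on them are also given without them. Each group comparison below is thus also a comparison of these marker sums, and their part in the results was not tested.

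The 20S core particle is a barrel of stacked rings, in which alpha subunits (Psma genes) form the gated outer rings and beta subunits (Psmb genes) the inner rings with the cutting sites. The 19S regulatory particle caps the barrel: its base holds the Psmc ATPases that unfold the substrate and pull it in, and its lid removes the ubiquitin. Other caps, the activators encoded by Psme genes, open the gate without ubiquitin or ATP. Red cell precursors break down most of their proteins and organelles before they mature, and macrophages and other antigen-presenting cells use the proteasome to make peptides for presentation.

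RefSeq promoter sequence (GRCm38.p6, from 250 bases before to 50 bases after the gene's start) was matched for 36 of the 43 members. The letters CCGGAAG, a binding site of ETS family factors, occurred in 9 of 14 promoters of base and lid genes (64.3%), in 0 of 11 promoters of alpha and beta ring genes and in 9.12% of all 27025 promoters. The letters CCAAT ran the other way, in 6 of 11 core promoters, 4 of 14 base and lid promoters and 37.9% of all promoters. The antioxidant response element core TGACNNNGC, the motif bound by the factors encoded by Nfe2l1 and Nfe2l2, was in 2 of 11, 2 of 14 and 12.5%. The GATA site AGATAA was in 0 of 11, 1 of 14 and 11.4%. The interferon-stimulated response element, added to the search after the values had been seen, was in 1 of 11, 1 of 14 and 3.49%. Motifs were searched on both strands, a match is a description of the letters and not a site of binding, and these counts were not tested. The 27025 promoters were not limited to genes measured or tested here, so their shares are not those of expressed genes. The 250 bases before the start are shown for 5 members that stand for the split described below between core (Psmb5, Psmb3), base (Psmc2), lid (Psmd11) and the activator gene Psme3. They lie directly upstream of the genes at chr14:54617996-54618245 (minus strand), chr11:97703184-97703433, chr5:21785025-21785274, chr11:80428365-80428614 and chr11:101315963-101316212 (plus strand for these 4). They are written 5′ to 3′ on the gene's strand, and capitals mark every match of the 5 motifs, as its reverse complement where the match is on the other strand. In Psmb5 the capitals are the antioxidant response element core, in Psmb3 the interferon-stimulated response element and a pair of CCAAT boxes, in Psmc2 the ETS site and then CCAAT, in Psmd11 the ETS site, and in Psme3 the ETS site and then CCAAT. No 2 of these matches share a base.
Psmb5: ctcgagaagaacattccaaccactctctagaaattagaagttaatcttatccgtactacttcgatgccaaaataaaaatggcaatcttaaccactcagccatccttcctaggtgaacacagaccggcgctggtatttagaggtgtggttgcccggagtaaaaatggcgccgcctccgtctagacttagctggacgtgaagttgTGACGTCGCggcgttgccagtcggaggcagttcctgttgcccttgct
Psmb3: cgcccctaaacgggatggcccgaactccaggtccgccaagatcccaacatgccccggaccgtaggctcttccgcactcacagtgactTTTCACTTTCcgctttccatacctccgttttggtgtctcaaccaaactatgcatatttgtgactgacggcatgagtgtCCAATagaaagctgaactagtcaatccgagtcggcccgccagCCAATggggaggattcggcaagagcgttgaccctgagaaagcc
Psmc2: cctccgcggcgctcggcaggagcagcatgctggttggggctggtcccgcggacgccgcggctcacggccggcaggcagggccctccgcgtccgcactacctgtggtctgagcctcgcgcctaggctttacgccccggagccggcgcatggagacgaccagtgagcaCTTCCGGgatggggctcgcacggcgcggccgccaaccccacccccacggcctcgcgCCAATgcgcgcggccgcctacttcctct
Psmd11: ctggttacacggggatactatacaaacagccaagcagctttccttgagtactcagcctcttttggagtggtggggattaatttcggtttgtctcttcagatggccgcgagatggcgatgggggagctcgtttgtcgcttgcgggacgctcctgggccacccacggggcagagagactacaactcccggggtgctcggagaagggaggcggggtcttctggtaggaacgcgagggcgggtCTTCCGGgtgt
Psme3: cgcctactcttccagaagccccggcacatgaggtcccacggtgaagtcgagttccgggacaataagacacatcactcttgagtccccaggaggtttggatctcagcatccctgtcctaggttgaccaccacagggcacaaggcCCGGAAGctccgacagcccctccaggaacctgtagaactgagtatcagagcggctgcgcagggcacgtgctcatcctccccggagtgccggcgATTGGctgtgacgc

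The comparison of tumor with splenic CD45+ cells keeps the gate and changes the tissue. Core particle genes were higher in tumor, regulatory particle genes mostly did not pass the test, and the activator genes parted: Psme1, Psme2 and the lid gene Psmd8 rose, and Psme3, Psme4 and the chaperone gene Psmd5 fell. Of 42 members tested with limma on log2(FPKM + 1) over all 11459 genes that reached 1 FPKM in at least 3 of the 7 libraries, 16 were higher and 3 lower (Benjamini-Hochberg adjusted p under 0.05). Over all genes tested, 37.8% were called higher and 26.0% lower, so 16 of 42 is near the background. The split lay between subcomplexes: 12 of 14 core genes were higher (5 of 7 alpha, 7 of 7 beta, median log2 difference 0.86 against 0.20 over all genes), and 1 of 17 base and lid genes was (median 0.00). Without splenic CD45+ replicate 2 the counts of members were 26 higher and 5 lower (45.3% and 26.9% of all genes), the core 14 of 14 (median 1.05) and base and lid 9 of 17 (median 0.30 against 0.27 over all genes), so the base and lid were then near the background. Without tumor replicate 1 they were 13 higher and 3 lower (35.7% and 22.9% of all genes). With trimmed-mean scaling of the libraries 7 of 14 core genes stayed higher (median 0.69 against 0.05, with 33.8% of all genes called higher), and with globin genes left out and a common sum the split of all member calls was 9 higher and 12 lower (25.8% and 37.5% of all genes). In these sorted bulk samples fewer cells of a type and less RNA per cell cannot be told apart.

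**Figure D1:**
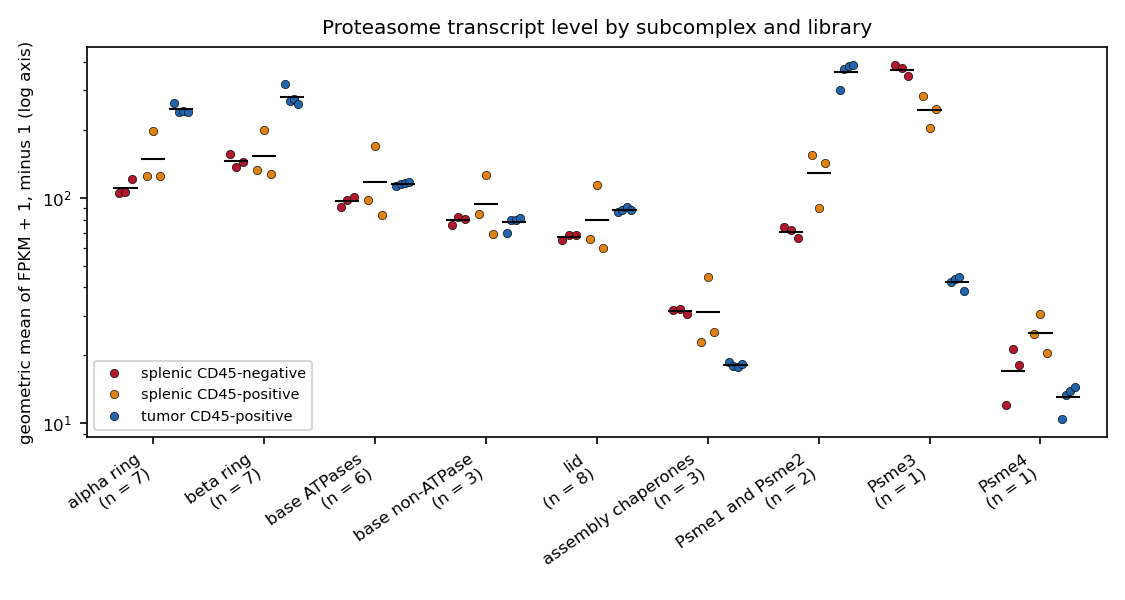
Geometric mean level of each subcomplex (FPKM + 1, minus 1, on a log axis) by library, with 1 point per library, coloured by group, and a bar at the group mean. The alpha ring lies between 240.7 and 263.4 FPKM in the tumor libraries and at most 198.1 FPKM in spleen, while the base ATPases overlap between tumor and splenic CD45+ libraries.

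Among the alpha subunits, Psma2 had the highest level over all libraries. It measured 183, 173 and 186 FPKM in the 3 splenic CD45- libraries, 187, 280 and 193 FPKM in the 3 splenic CD45+ libraries and 340, 295, 309 and 295 FPKM in the 4 tumor libraries. Its tumor values lay above every splenic value, and limma gave a log2 difference of 0.51 ± 0.18 (SE, adjusted p = 0.0359, n = 4 and 3) between tumor and splenic CD45+ libraries. Psma4 was the lowest alpha gene in spleen, at 53.2, 56.6 and 68.7 FPKM in CD45- and 77.6, 121 and 82.0 FPKM in CD45+ libraries. In tumor it reached 233, 239, 225 and 232 FPKM, with no overlap between any of the groups, and the log2 difference from splenic CD45+ cells was 1.33 ± 0.18 (adjusted p = 4.33e-04). Psma7 (1.03), Psma6 (0.94) and Psma3 (0.68) also rose, while Psma5 (0.51, adjusted p = 0.0803) and Psma1 (0.30, adjusted p = 0.307) did not pass the test, and splenic CD45+ replicate 2 reached into or above the tumor range of both. Without it all 7 alpha genes were called higher. The Psma4 gene overlaps AY074887 in the annotation, and since no source used here says that reads were counted by strand, reads of the pair may be mixed. The same limit applies to all 8 members that overlap a protein-coding gene. Besides Psma4, Psme1 and Psme4 these are Psmd1, Psmd10, Psme2b, Psmc3ip and Psme3ip1.

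The beta ring holds the 3 cutting subunits. Psmb5, which carries the chymotrypsin-like activity, measured 126, 105 and 101 FPKM in splenic CD45-, 121, 152 and 98.0 FPKM in splenic CD45+ and 204, 172, 180 and 169 FPKM in tumor libraries. The tumor values were all higher than the splenic ones, by 0.57 ± 0.18 on the log2 scale against splenic CD45+ cells (adjusted p = 0.0247). Psmb6, with the caspase-like activity, stood at 110, 97.1 and 89.2 FPKM, then 87.4, 115 and 80.5 FPKM, and 254, 211, 219 and 209 FPKM in tumor. This was the largest log2 difference of the beta ring, 1.25 ± 0.17 (adjusted p = 4.57e-04), and the splenic groups overlapped. Psmb7, with the trypsin-like activity, had 265, 235 and 256 FPKM, then 213, 302 and 176 FPKM, and 408, 322, 328 and 314 FPKM. Its tumor libraries were also above all splenic ones, at 0.60 ± 0.21 (adjusted p = 0.0377). The calls of Psma2, Psmb5 and Psmb7 were lost when splenic CD45+ replicate 1 or 3 or tumor replicate 1, 2 or 3 was left out, and those of Psma2 and Psmb7 also without tumor replicate 4 (highest adjusted p 0.113, 0.0712 and 0.119 with limma).

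The other beta subunits have structural roles. Psmb3 was the highest of all members in tumor, at 590, 455, 449 and 410 FPKM, against 245, 189 and 232 FPKM in splenic CD45- and 176, 292 and 196 FPKM in splenic CD45+ libraries. Its splenic groups overlapped and its tumor values did not reach down to them (log2 difference 1.12 ± 0.22, adjusted p = 0.00276). Psmb2 was the lowest beta gene in each group, at 55.7, 57.1 and 56.1 FPKM, 73.7, 128 and 61.6 FPKM, and 162, 162, 177 and 165 FPKM. All 3 groups were separate, and the log2 difference of tumor from splenic CD45+ cells was 0.99 ± 0.24 (adjusted p = 0.00835). Psmb1 (0.92) and Psmb4 (0.80) rose as well. Psma8, the alpha subunit known from testis, was near the detection limit, at 0.11, 0.14 and 0.20 FPKM, then 0.69, 0.83 and 0.75 FPKM, and 1.75, 1.66, 1.39 and 1.03 FPKM. It entered the test only through the tumor libraries, so its call (0.48, adjusted p = 0.0151) had to follow. Psmb11, the beta subunit of the thymus, was listed at 0 in 7 libraries and at no more than 0.02 FPKM in the others, and was not tested.

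**Figure D2:**
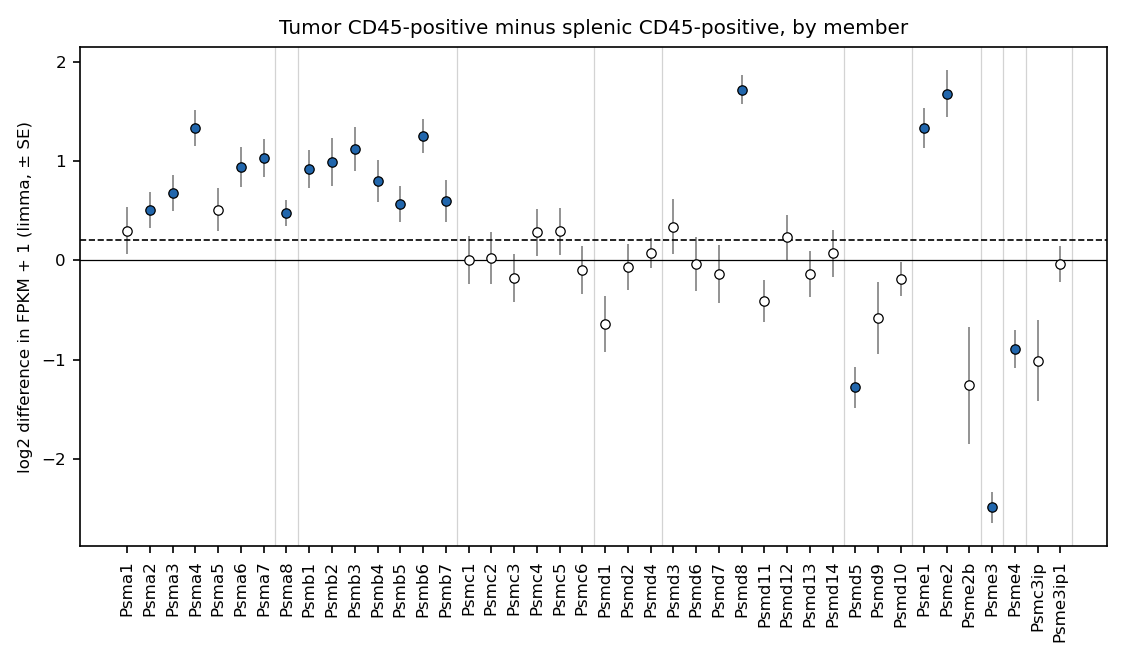
Log2 difference in FPKM + 1 (limma, ± SE) between 4 tumor and 3 splenic CD45+ libraries for each of the 42 members tested, ordered by subcomplex, with filled points at an adjusted p below 0.05 and a dashed line at the median of all genes tested (0.20). Core genes lie above the line, base and lid genes from -0.64 (Psmd1) to 0.34 (Psmd3) except Psmd8 at 1.72, and Psme3 lowest at -2.49.

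The base ATPases form the ring that unfolds substrates, and 0 of 6 passed the test between tumor and splenic CD45+ cells (log2 differences from -0.18 to 0.29), with 4 of 6 higher without splenic CD45+ replicate 2. Psmc3 was the highest of them, at 203, 207 and 189 FPKM in splenic CD45-, 160, 281 and 138 FPKM in splenic CD45+ and 169, 162, 161 and 157 FPKM in tumor libraries. The tumor values lay inside the splenic CD45+ range. Psmc4 was the lowest, at 72.9, 63.6 and 69.0 FPKM, then 67.5, 114 and 56.1 FPKM, and 95.0, 89.8, 92.7 and 90.5 FPKM. Its tumor values again fell within the CD45+ range of the spleen and above the CD45- values. Splenic CD45+ replicate 2 had the highest value of its group in every one of these 6 genes, and it sets the width of that range.

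The non-ATPase base subunits bind ubiquitin and its shuttles. Psmd4, a ubiquitin receptor, was the highest, at 121, 117 and 113 FPKM, then 112, 139 and 102 FPKM, and 117, 121, 122 and 128 FPKM. All 3 groups overlapped, and the tumor difference from splenic CD45+ cells was 0.07 ± 0.15 (adjusted p = 0.725). Psmd1, a scaffold of the base, was the lowest, at 47.3, 59.5 and 58.9 FPKM, then 58.9, 111 and 48.7 FPKM, and 36.2, 47.4, 45.4 and 45.9 FPKM. Its tumor values were all below the splenic CD45+ values, but the difference of -0.64 ± 0.28 did not pass the test (adjusted p = 0.0776). It was -0.29 without splenic CD45+ replicate 2 (adjusted p = 0.102), and with trimmed-mean scaling it passed at -0.81 (adjusted p = 0.0465). Psmd2, the other scaffold, differed by -0.07.

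Among the 8 lid subunits, Psmd8 was the one gene that passed. Its product is the last subunit to join the lid in assembly, and the gene measured 96.4, 102 and 93.2 FPKM in splenic CD45-, 86.7, 107 and 88.7 FPKM in splenic CD45+ and 363, 289, 296 and 299 FPKM in tumor libraries. The splenic groups overlapped and the tumor libraries stood far above both, at a mean of 312 ± 34.3 FPKM (SD, n = 4) against 94.0 ± 11.0 FPKM (n = 3) in splenic CD45+ cells, a ratio of 3.32. The log2 difference was 1.72 ± 0.15 (adjusted p = 4.80e-05), and it was between 1.64 and 1.81 when any 1 library was left out. Psmd11, whose product braces the lid against the core, was the lowest lid gene over all libraries, with 59.0, 68.2 and 64.7 FPKM, then 54.3, 83.1 and 49.95 FPKM, and 37.9, 49.0, 51.6 and 44.5 FPKM. Its tumor values overlapped the splenic CD45+ values (-0.41, adjusted p = 0.124). The other 6 lid genes, among them the deubiquitinase gene Psmd14 (0.07), differed by -0.14 to 0.34.

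The assembly chaperones Psmd5, Psmd9 and Psmd10 help build the base and leave before the particle is complete. Psmd5 had 79.6, 85.3 and 75.9 FPKM in splenic CD45-, 46.1, 83.3 and 57.1 FPKM in splenic CD45+ and 26.9, 24.8, 23.5 and 22.3 FPKM in tumor libraries. The tumor values were below all splenic values, and the gene fell by 1.28 on the log2 scale against splenic CD45+ cells (SE 0.21, adjusted p = 0.00121). Psmd9 measured 23.0, 20.2 and 18.4 FPKM, then 9.73, 29.7 and 10.3 FPKM, and 10.2, 9.40, 9.27 and 8.90 FPKM. Splenic CD45+ replicates 1 and 3 sat near the tumor values and replicate 2 above all CD45- values (-0.58, adjusted p = 0.191, and -0.08 without replicate 2). Psmd10, also called gankyrin, had 17.3, 18.5 and 19.96 FPKM, then 26.5, 35.5 and 26.7 FPKM, and 23.6, 24.1, 24.9 and 30.1 FPKM. Its CD45+ groups overlapped and both lay above the CD45- libraries.

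**Figure D3:**
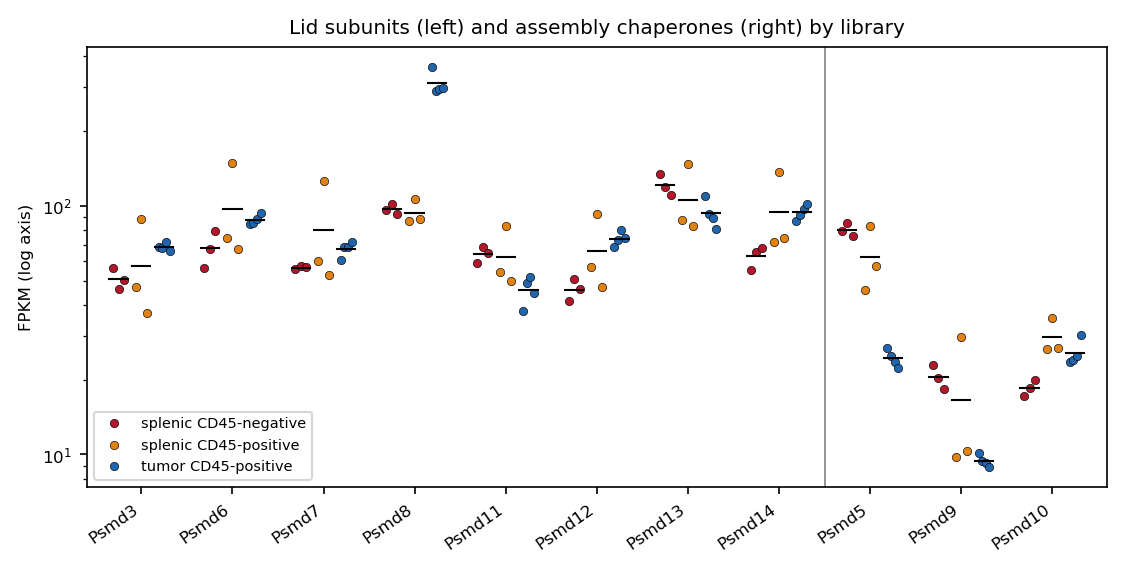
FPKM (log axis) of the 8 lid genes and 3 assembly chaperone genes, with 1 point per library and a bar at the group mean. Psmd8 is at 289 to 363 FPKM in tumor and at most 107 FPKM in spleen, while Psmd5 is at most 26.9 FPKM in tumor and at least 46.1 FPKM in spleen.

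Psme1 and Psme2 encode the alpha and beta chains of PA28, a cap that interferon gamma induces and that favours peptides for presentation. Psme1 had 72.7, 67.7 and 62.4 FPKM in splenic CD45-, 164, 101 and 143 FPKM in splenic CD45+ and 279, 361, 361 and 350 FPKM in tumor libraries. Psme2 had 75.5, 76.8 and 69.8 FPKM, then 145, 81.0 and 143 FPKM, and 322, 381, 404 and 431 FPKM. Neither gene's groups overlapped, and in both the lowest splenic CD45+ library was replicate 2 and the lowest tumor library replicate 1. The log2 differences of tumor from splenic CD45+ cells were 1.33 ± 0.20 for Psme1 (adjusted p = 7.96e-04) and 1.68 ± 0.24 for Psme2 (adjusted p = 5.26e-04). Without tumor replicate 1 they were 1.42 and 1.76, and without splenic CD45+ replicate 2 they were 1.13 and 1.40. Psme1 overlaps Emc9 in the annotation. Psme2b, a near-identical copy of Psme2, was listed at 0, 0 and 0.06 FPKM, then 17.5, 2.25 and 13.0 FPKM, and 1.49, 3.09, 3.06 and 4.78 FPKM. No source used here says how reads were divided between Psme2 and Psme2b, so the values of the copy are uncertain.

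Psme3 encodes PA28 gamma, the cap of nuclear proteasomes. It measured 385, 377 and 346 FPKM in splenic CD45-, 282, 204 and 246 FPKM in splenic CD45+ and 42.3, 43.4, 44.7 and 38.7 FPKM in tumor libraries. It was the highest of all members in both splenic groups, the 3 groups were separate, and the tumor mean was 0.173 times that of splenic CD45+ cells. The log2 difference was -2.49 ± 0.16 (adjusted p = 7.42e-06), the smallest adjusted p of the members in this comparison, and it lay between -2.61 and -2.38 when any 1 library was left out. Psme4 encodes PA200, a single-chain cap. It had 12.0, 21.3 and 18.1 FPKM, then 24.9, 30.4 and 20.5 FPKM, and 10.4, 13.4, 14.0 and 14.4 FPKM. Tumor values lay below the splenic CD45+ values and overlapped the CD45- values, and the gene fell by 0.89 (SE 0.19, adjusted p = 0.0039) against splenic CD45+ cells, a call that a common sum ended (adjusted p = 0.0888). Psme4 overlaps Erlec1 in the annotation.

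**Figure D4:**
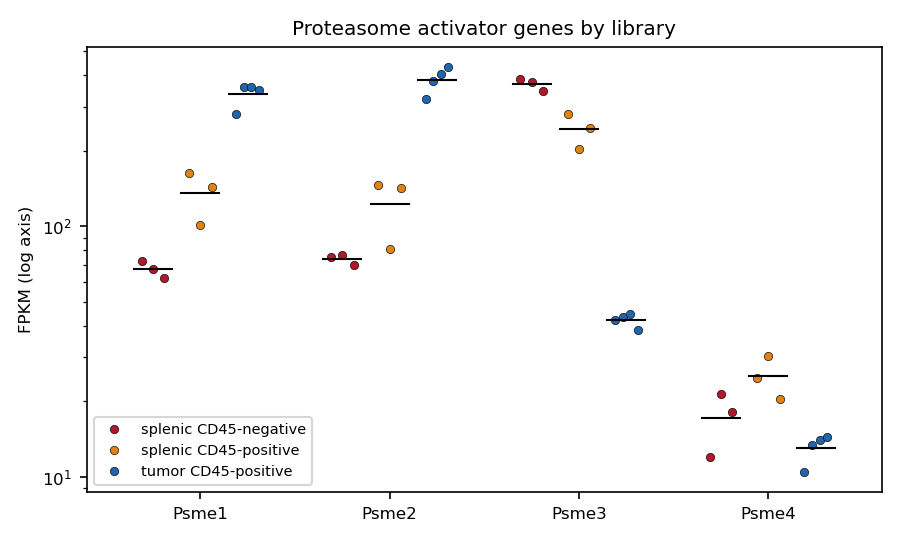
FPKM (log axis) of the 4 activator genes, with 1 point per library and a bar at the group mean. Psme1 and Psme2 are highest in tumor (279 to 431 FPKM), Psme3 is lowest there (38.7 to 44.7 FPKM against at least 204 FPKM in spleen), and Psme4 is at most 30.4 FPKM in every library.

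Within a library, a ratio of members does not change with the scaling of that library. Psme3 made up 72.3% ± 0.0577 (SD, n = 3) of the summed FPKM of Psme1, Psme2 and Psme3 in splenic CD45-, 48.9% ± 3.42 (n = 3) in splenic CD45+ and 5.58% ± 0.758 (n = 4) in tumor libraries. The ranges were 72.2% to 72.3%, 46.3% to 52.8% and 4.72% to 6.57%, without overlap. Splenic CD45+ replicate 2 had the lowest FPKM of its group for all 3 genes and the highest share, 52.8%. Relative to the geometric mean of the 7 alpha genes, Psme3 stood at a log2 ratio of 1.73 ± 0.19 (SD) in splenic CD45-, 0.73 ± 0.60 in splenic CD45+ and -2.52 ± 0.10 in tumor libraries. Psme1 and Psme2 together went from -0.64 ± 0.20 through -0.21 ± 0.79 to 0.54 ± 0.23, with a splenic CD45+ range of -1.12 to 0.30 that overlapped both other groups. The lowest splenic CD45+ value was that of replicate 2. The difference of 0.75 between tumor and splenic CD45+ libraries lay between 0.29 and 1.00 when any 1 library was left out.

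The base and lid lost ground against the alpha ring in tumor. The mean log2 ratio of the base ATPases was -0.20 ± 0.07 (SD) in splenic CD45-, -0.38 ± 0.17 in splenic CD45+ and -1.09 ± 0.09 in tumor libraries. For the non-ATPase base genes it was -0.48 ± 0.11, -0.68 ± 0.15 and -1.65 ± 0.16, and for the lid -0.71 ± 0.10, -0.92 ± 0.12 and -1.47 ± 0.08. In these 3 subcomplexes no tumor library overlapped a splenic library of either gate. Gene by gene, 16 of 17 base and lid genes had a lower ratio to the alpha ring in every tumor library than in any splenic CD45+ library, a pattern shown by 47.6% of all genes tested, and the same number did so against splenic CD45- libraries (44.5% of all genes tested). The exception in both was Psmd8, whose ratio was higher in tumor by 0.96 and 0.52. Leaving Psmd8 out moved the lid's difference between tumor and splenic CD45+ cells from -0.55 to -0.77. The beta ring was at 0.39 ± 0.16, 0.04 ± 0.04 and 0.18 ± 0.07. Its splenic CD45+ range (0.01 to 0.08) overlapped neither the splenic CD45- range (0.24 to 0.56) nor the tumor range (0.11 to 0.27). The chaperones went from -1.79 ± 0.15 through -2.26 ± 0.13 to -3.69 ± 0.04. Splenic CD45+ replicate 2, whose member levels were high, did not stand apart in the base and lid ratios (-0.23, -0.65 and -0.80).

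**Figure D5:**
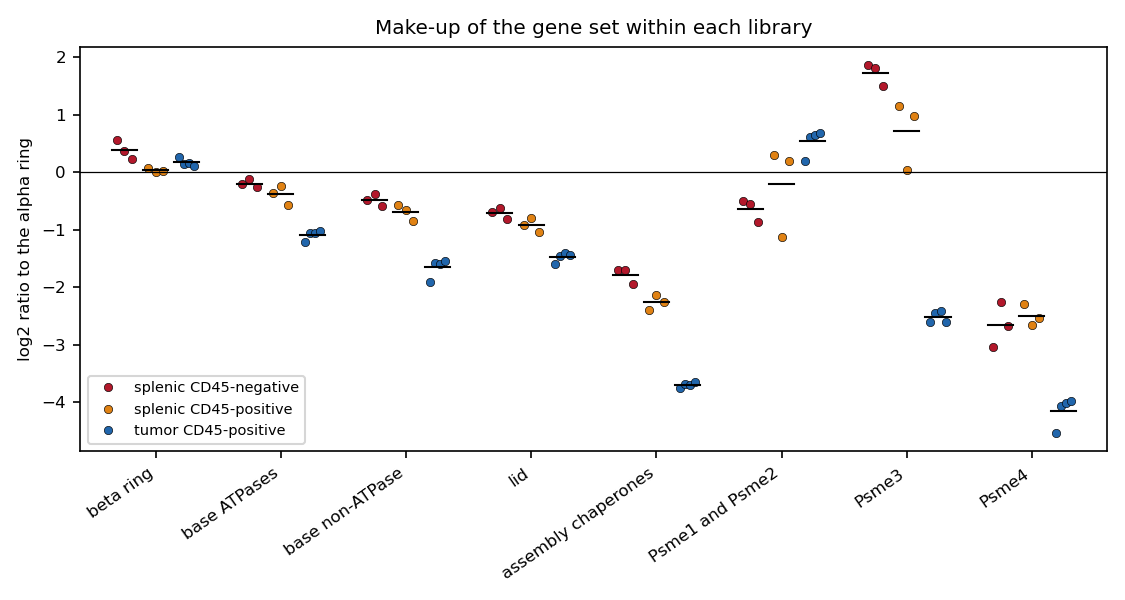
Log2 ratio of each subcomplex or gene to the alpha ring within each library (1 point per library, coloured by group, bar at the group mean, line at 0 for equality with the alpha ring). Base, lid and chaperone points of the 4 tumor libraries lie below all splenic points, with base ATPases at -1.21 to -1.02 in tumor and -0.56 to -0.12 in spleen.

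The comparison of CD45+ with CD45- cells within the spleen moved few members in the values as deposited. Of 41 tested, Psmd10 (0.63 ± 0.20, adjusted p = 0.0283), Psme1 (0.97 ± 0.22, adjusted p = 0.00849) and Psme2b (3.21 ± 0.60, adjusted p = 0.00373) were higher and Psme3 (-0.61 ± 0.19, adjusted p = 0.027) was lower in limma's test, against 50.5% of all 9725 genes called higher and 5.01% called lower. Psme2b entered the test only through the CD45+ libraries. The median log2 difference was 0.24 over the members and 0.67 over all genes. No gene of the alpha ring, beta ring, base or lid passed as deposited. These counts moved with the scaling: they were 1 higher and 14 lower with trimmed-mean scaling (24.8% of all genes in either direction) and 1 and 22 with median-ratio scaling (24.1% and 30.9%). They were 7 and 0 with a common sum (57.4% and 1.24%), and 5 and 7 without splenic CD45+ replicate 2 (46.1% and 17.5%). With trimmed-mean scaling Psmb1, Psmb3, Psmb4, Psmb5, Psmb6, Psmb7, Psmc3, Psmd4, Psmd8, Psmd11 and Psmd13 were among the genes called lower. Median-ratio scaling called these and also Psma1, Psma2, Psmc4, Psmc5, Psmd2 and Psmd3 lower. Psma4 and Psma7 were called higher with a common sum and without replicate 2. Without that library Psmb7, Psmc3 and Psmd13 were called lower. Trimmed-mean and median-ratio scaling moved the median of all genes from 0.67 to -0.17 and -0.19. Psmd10 changed sign under both of these (-0.27 and -0.26), Psme1 dropped to 0.04, and Psme3 was below 0 under every scaling, from -1.55 to -0.23, where a common sum ended its call (adjusted p = 0.495). The calls of Psmd10 and Psme3 were lost without any 1 of the CD45- libraries, that of Psmd10 also without CD45+ replicate 1 and that of Psme3 also without CD45+ replicate 3 (highest adjusted p 0.101 and 0.0964 with limma).

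The comparison of tumor CD45+ with splenic CD45- cells changes tissue and gate together, which cannot be told apart, and shares its samples with the comparisons above. Of 42 members tested, 29 were higher and 8 lower, against 67.5% and 22.5% of all 11204 genes tested, and with trimmed-mean scaling 6 were higher and 30 lower (45.0% and 45.4% of all genes). The median was 0.44 over the members and 1.06 over all genes, which trimmed-mean scaling moved to -0.83 and -0.02. All 14 core genes were higher as deposited, but with trimmed-mean scaling 2 were higher and 7 lower. Under all 4 other scalings 10 of the 37 calls held: Psma4 (1.96), Psmb2 (1.55), Psmd8 (1.67), Psme1 (2.30), Psme2 (2.35) and Psme2b (1.95) higher, and Psme3 (-3.10), Psmd5 (-1.68), Psmc3ip (-1.35) and Psmd9 (-1.04) lower. Psme2b and Psma8 entered this test only through the tumor libraries. In the comparison of tumor with splenic CD45+ cells 11 of the 19 calls held under all 4: Psma4, Psma6, Psma7, Psmb1, Psmb3, Psmb6, Psmd8, Psme1 and Psme2 higher, and Psmd5 and Psme3 lower, and none of the 19 changed sign.

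Both genes that fit the symbol rule without being subunits were read separately. Psmc3ip, which encodes a partner of meiotic recombinases, had 24.6, 25.7 and 32.1 FPKM in splenic CD45-, 13.5, 48.5 and 14.6 FPKM in splenic CD45+ and 11.9, 9.80, 8.79 and 10.2 FPKM in tumor libraries. Tumor was below spleen throughout (-1.01, adjusted p = 0.0621), and without splenic CD45+ replicate 2 the difference was -0.44 and passed (adjusted p = 0.0206). Psme3ip1, which encodes a protein that binds PA28 gamma, had 23.6, 22.2 and 21.0 FPKM, then 26.9, 32.3 and 21.4 FPKM, and 22.9, 28.3, 26.1 and 25.7 FPKM. Its groups overlapped, and it did not pass in any of the 3 comparisons as deposited.

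Immunoproteasome subunits replace the cutting subunits in immune cells, and Psmb8 was at 0.0346 to 0.061 times the FPKM of Psmb5 in splenic CD45-, 0.122 to 1.34 times in splenic CD45+ and 1.49 to 2.10 times in tumor libraries. Psmb9 to Psmb6 overlapped between splenic CD45+ (0.15 to 1.12) and tumor libraries (0.749 to 1.24), Psmb10 to Psmb7 did not (0.0329 to 0.233 and 0.373 to 0.498), and replicate 2 was the lowest splenic CD45+ library in all 3 ratios.

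Of 33 other genes of the pathway, 32 were tested between tumor and splenic CD45+ cells, and 12 were higher and 5 lower (median 0.04 against 0.20 over all genes), against 37.8% and 26.0% of all genes, so the share that rose is that of the background. Of 5 core assembly factors tested 3 rose. Pomp, the maturation factor of the beta ring, measured 148, 184 and 132 FPKM in splenic CD45+ and 369, 338, 351 and 333 FPKM in tumor libraries (1.17, adjusted p = 4.06e-04), and Psmg1 (0.98) and Psmg4 (1.55) rose while Psmg2 (-0.43) and Psmg3 (0.06) did not pass. Sem1, the smallest lid subunit, was higher (1.09), and the ubiquitin receptor gene Adrm1 (0.01) and the deubiquitinase genes Usp14 (-0.24) and Uchl5 (0.18) did not pass. Psmf1, which encodes PI31, a protein known as an inhibitor of the core, fell by 2.06 (adjusted p = 4.14e-04), from 32.8, 75.7 and 36.9 FPKM to between 9.79 and 10.3 FPKM in the 4 tumor libraries. Among genes that control proteasome transcription, Nfe2l1 (1.34) and Nfe2l2 (1.24) were higher, while Ddi2 (-0.74) and Ngly1 (-0.87), whose products release and process the Nfe2l1 protein, were lower. Of 16 genes of ubiquitin supply and delivery, 6 were higher and 2 lower, again near the background. Rad23b, a shuttle of ubiquitin-tagged proteins, rose by 0.80 (adjusted p = 0.00281). Of the 32 genes, 9 were higher and 1 lower between the splenic groups (50.5% and 5.01% of all genes), and 18 were higher and 8 lower between tumor and splenic CD45- cells (67.5% and 22.5% of all genes).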

How the data were processed

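Total RNA from sorted cells was extracted with TRIZOL and made into libraries by a sequencing company, per the labels' protocols. The authors deposited 1 value per RefSeq model and library (61685 models, 1843 of them numbered copies). Their unit is not named. The deposited numbers were taken as FPKM because length-weighted sums lay between 971633 and 1174331 in every library over the 24850 models with a known length. Per the submitters' processing notes, the genome was GRCm38.p6. The sources used here name no aligner, quantifier or use of strand. Models were summed per gene symbol, and 1526 models without a symbol (0.426% to 1.067% of FPKM) entered no test. Steps in low values put the depth roughly at 17800000 to 20800000 fragments per library, though only 41.5% to 59.2% of low values lay within 0.12 of a whole step, so no counts were recovered. Values below 1 FPKM are coarse.

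Each pair of groups was compared with limma 3.58.1 (R 4.3.3, intensity trend) on log2(FPKM + 1), which understates changes of low genes, keeping genes that reached 1 FPKM in 3 or more of the libraries compared, with Benjamini-Hochberg adjustment over all genes tested and a threshold of 0.05. The procedure was also run on simulated data. The simulated libraries had no scaling differences between groups, so that run cannot show how calls depend on scaling. Make-up ratios are log2 ratios of geometric means (FPKM + 1) within a library, without a test. Values are given in full for the catalytic and activator genes, the 3 smallest adjusted p in each direction and comparison, the highest and lowest gene of each subcomplex, and genes that are no subunits. Alternatives were a pseudocount of 0.1, no filter, 4 other scalings, the highest model, a replicate block, 1 fit over all libraries and leaving out each library. Members and lists were chosen with earlier results of these data known. Same-numbered libraries were not treated as pairs. Some single-gene values of the marker and pathway lists are not reported here.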

Additional observations from a re-analysis of the deposited data

Results flagged for a closer look

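In 33 checks of the 4 tumor libraries (25 members named with all values and 8 make-up ratios), 6 had a highest or lowest library whose gap to its neighbour took up more of the range than Dixon's critical value for 4 samples. For a single check chance gives about 1 in 20. The checks share the same 4 libraries and many of the same genes, so they are not independent and 6 of 33 cannot be set against that rate. Tumor replicate 1 was the odd library in 5 of them. It was highest for Psmb7 (408 FPKM against 314 to 328 FPKM, gap share 0.854) and Psmd8 (363 FPKM against 289 to 299 FPKM, gap share 0.868). It was lowest for Psme1 (279 FPKM against 350 to 361 FPKM, gap share 0.874), for the ratio of the non-ATPase base genes to the alpha ring (-1.90 against -1.59 to -1.55, gap share 0.882) and for that of Psme1 and Psme2 (0.19 against 0.62 to 0.69, gap share 0.86). The same library held 10.43% globin against 1.8% to 1.87%, granulocyte markers at 1730 FPKM against 49.6 to 58.2 FPKM and T and NK cell markers at 7.9 FPKM against 42.2 to 43.9 FPKM, and the part of these in the values was not tested. For Psmb11 tumor replicate 2 was listed at 0.01 FPKM and the other three at 0 (gap share 1.0), a difference at the last decimal of the tables.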

How the results depend on the processing

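Counts of members called moved with scaling and with single libraries. Between the splenic groups (3 higher, 1 lower) they were 1 and 14 with trimmed-mean scaling, 1 and 22 with median-ratio scaling, 7 and 0 with a common sum, 3 and 2 with globin genes left out, 2 and 0 with the replicate block, 8 and 1 in 1 fit over all libraries, and ranged from 1 to 5 and from 0 to 7 with 1 library left out. Between tumor and splenic CD45+ cells (16 and 3) they were 11 and 4 with trimmed-mean and with median-ratio scaling, 16 and 2 with a common sum, 9 and 12 with globin genes left out, 17 and 6 in 1 fit over all libraries, 11 and 3 with the replicate block, and 13 to 26 and 3 to 5 with 1 library left out. Between tumor and splenic CD45- cells (29 and 8) they were 6 and 30, 7 and 29, 35 and 4, 12 and 21, and 21 and 5 under trimmed-mean, median-ratio, common-sum, globin-free scaling and 1 fit. Deviations of same-numbered libraries from their group means correlated weakly or not at all (between -0.18 and 0.24). With so few libraries per group this cannot decide whether they came from the same animal, and the labels do not say. Under the replicate block 2 of 4, 14 of 19 and 37 of 37 calls held. Of 71 tested values of named genes, 36 changed sign under at least 1 alternative, and the cause was not tested. Between the splenic groups the log2 values then were Psma2 -0.68, Psma4 -0.30, Psmb2 -0.37, Psmb5 -0.79, Psmc4 -0.79, Psmd1 -0.61, Psmd10 -0.27, Psme2 -0.25, Psme4 -0.34 and Psme3ip1 -0.66 with trimmed-mean scaling, Psma2 -0.67, Psma4 -0.30, Psmb2 -0.36, Psmb5 -0.78, Psmc4 -0.78, Psmd1 -0.61, Psmd10 -0.26, Psme2 -0.25, Psme4 -0.34 and Psme3ip1 -0.66 with median-ratio scaling, Psmb3 0.35, Psmb6 0.31, Psmb7 0.22, Psmc3 0.27, Psmd4 0.38, Psmd8 0.33, Psmd11 0.31 and Psmc3ip 0.04 with a common sum, Psma2 0.00, Psmb5 -0.12, Psmc4 -0.12 and Psme3ip1 -0.01 with globin genes left out, and Psmd4 0.01 with the highest model. Between tumor and splenic CD45+ cells they were Psmd4 -0.10 with trimmed-mean scaling, Psmd4 -0.08 with median-ratio scaling, Psmc3 0.08, Psmd10 0.06 and Psme3ip1 0.21 with a common sum, Psmc4 -0.18 and Psmd4 -0.40 without globin genes, and Psme3ip1 0.12 with the highest model. Between tumor and splenic CD45- cells they were Psma2 -0.49, Psmb3 -0.18, Psmb5 -0.55, Psmb6 -0.09, Psmb7 -0.83, Psmc4 -0.83, Psmd4 -1.20, Psmd10 -0.77 and Psme3ip1 -1.02 with trimmed-mean scaling, Psma2 -0.37, Psmb3 -0.06, Psmb5 -0.43, Psmb7 -0.71, Psmc4 -0.71, Psmd4 -1.08, Psmd10 -0.66 and Psme3ip1 -0.91 with median-ratio scaling, Psmc3 0.35, Psmd1 0.30, Psmd11 0.16 and Psme4 0.26 with a common sum, and Psmb5 -0.02, Psmb7 -0.29, Psmc4 -0.30, Psmd4 -0.67, Psmd10 -0.26 and Psme3ip1 -0.51 without globin genes. With 1 library left out, values that crossed 0 ranged, between the splenic groups, from -0.25 to 0.11 for Psmb3, -0.23 to 0.03 for Psmb6, -0.13 to 0.09 for Psmd4, -0.15 to 0.00 for Psmd8, -0.29 to 0.07 for Psmd11, -0.01 to 0.30 for Psmb5, -0.15 to 0.35 for Psmc4, -0.04 to 0.55 for Psmd1, -0.38 to 0.01 for Psmb7 and -0.42 to 0.09 for Psmc3, and between tumor and splenic CD45+ cells from -0.39 to 0.13 for Psmc3, -0.19 to 0.09 for Psme3ip1 and -0.03 to 0.19 for Psmd4. With the beta ring as the base of the make-up ratios, the differences between the splenic groups changed sign for base ATPases (0.16), non-ATPase base (0.14) and lid (0.14), and were -0.13 for chaperones and 0.51 for Psme4. Those between tumor and splenic CD45+ cells were -0.69 for the lid and -1.57 for chaperones, and those between tumor and splenic CD45- cells were -0.68, -0.97, -0.55 and -1.70 for base ATPases, non-ATPase base, lid and chaperones and -4.03 for Psme3. Without Psmd8, an alternative chosen after seeing the data, the lid differences were -0.77 and -0.94. All alternatives were run. Depth limits Psma8, Psmb11 and Psme2b, which lie near or below 1 FPKM in at least 1 group.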
